A study of Mus musculus with 10 samples.

Results

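The genes described here are the TAM receptors (Tyro3, Axl and Mertk), their 2 ligands, and other genes through which phagocytes take up apoptotic cells. The 10 members, Axl, Mertk, Tyro3, Gas6, Pros1, Mfge8, Timd4, Megf10, Gulp1 and Adgrb1, were matched by symbol, and all 10 were found among the 55453 genes of the count table. Microglia, the resident macrophages of the brain, were sorted as CD45int CD11b+ cells from the hippocampi of female 3xTg mice older than 15 months, and RNA was sequenced in 10 libraries. Of these, 5 came from mice given PBS and 5 from mice given 0.1 mg of GA (glatiramer acetate, a synthetic copolymer of amino acids used in multiple sclerosis) weekly for about 8 weeks, with an additional injection in the first week by the study's methods. Both groups carry the 3xTg transgenes, which include mutant forms of human APP (the Swedish mutation) and MAPT that the study's methods place under the Thy1.2 promoter, which is active in neurons, and wild-type mice were not analysed here. The comparison of GA with PBS therefore asks what GA changed in microglia of mice that already carry the disease model.

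TAM receptors are receptor tyrosine kinases that do not bind apoptotic cells directly. Gas6 and protein S, the product of Pros1, hold phosphatidylserine on the dying cell with one end and the receptor with the other, and Mertk in particular drives engulfment while Axl is the member induced in many inflamed tissues. In the brain microglia use this route to clear dying neurons and other debris, and receptors such as Tim-4 and bridging proteins such as Mfge8 serve the same purpose by other means.

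The libraries held between 32332185 and 38764643 counts. The labels do not say whether each library is a separate mouse, so the p-values measure only the spread between these libraries. Summed microglial marker genes stood at 56188 to 66373 CPM (counts scaled by library size) with PBS and 57205 to 62012 CPM with GA, against 1.53 to 4.58 CPM for neuronal markers over all libraries. Markers of other myeloid cells were present, with sums of 38.0 to 448 CPM (PBS) and 11.0 to 170.2 CPM (GA) for neutrophils, 55.7 to 284 CPM and 54.9 to 215 CPM for border-associated macrophages, and 35.6 to 96.8 CPM and 37.9 to 56.7 CPM for monocytes. P2ry12, Ptprc and Itgam, the genes of the sort and of microglial identity, were counted in all 10. Every PBS library has the title prefix 388, whereas GA replicates 1 and 2 have the prefix 394 and GA replicates 3 to 5 the prefix 400. What the prefix stands for is not given in the sources used here, and prefix and treatment cannot be told apart. In bulk samples of this kind, fewer cells of a type and less RNA per cell cannot be told apart either.

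Levels were compared between genes as normalized CPM per kilobase of merged exons. On this scale Pros1 was the most abundant member at 276 ± 19.7 (SD, n = 10), followed by Mertk at 228 ± 10.7, Gas6 at 123 ± 14.2 and Axl at 65.2 ± 14.1. Among the 14380 tested genes with a known length, these levels stood at percentiles 99.3, 99.1, 98.2 and 96.1. Mfge8, at 7.11 ± 0.748, stood at percentile 61.5 (14.3 and percentile 70.3 with the longest transcript as length), and Timd4, at 0.249 ± 0.171, at percentile 8.96. The ranges of Pros1, Mertk and Gas6 did not overlap over the 10 libraries, nor did those of Axl, Mfge8 and Timd4. Gas6 and Axl were the only neighbours among the 6 most abundant members whose ranges overlapped, although Gas6 was above Axl within each of the 10 libraries, by 1.39 to 3.34 times. Tyro3, Gulp1, Adgrb1 and Megf10 lay at the bottom, and the counts behind them were too few to order them beyond their spread.

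**Figure D1:**
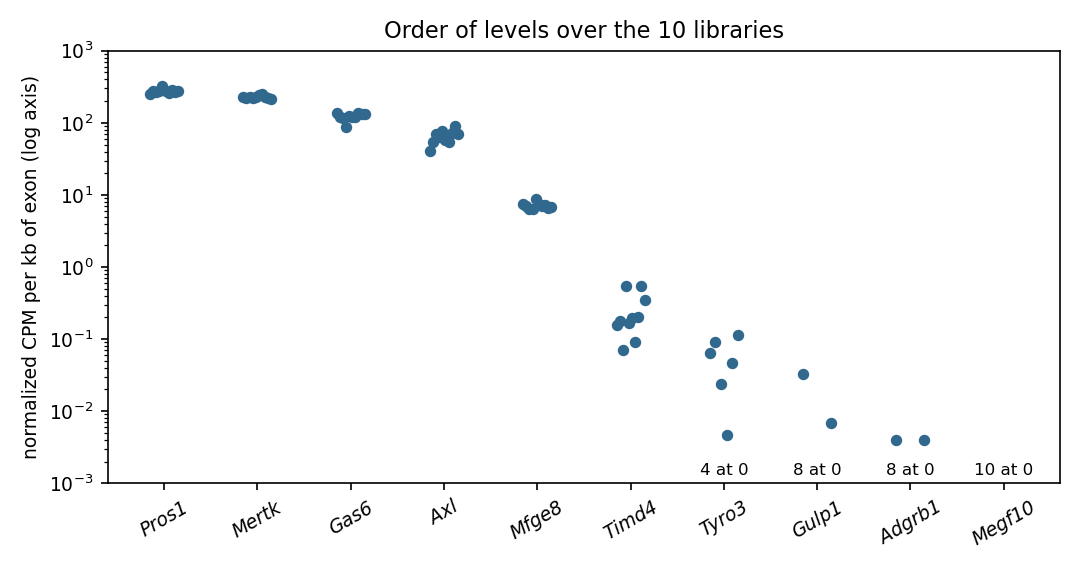
Normalized CPM per kilobase of merged exons (log axis) for the 10 members, 1 point per library, in order of the mean over the 10 libraries. Pros1, Mertk, Gas6 and Axl sit between 40.4 and 325, and libraries with no count are given as a number at the bottom of the axis.

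The receptors differed in level and in spread. Axl lies at chr7:25757273-25788705 on the minus strand and Mertk at chr2:128698956-128802894 on the plus strand (GENCODE annotation of GRCm38). Axl was at 203, 277, 357, 315 and 393 CPM in PBS replicates 1 to 5 and at 295, 272, 359, 454 and 355 CPM in GA replicates 1 to 5. The lowest library was PBS replicate 1 and the highest GA replicate 4, and the groups overlapped, with 1 of 5 GA libraries above every PBS library. The mean was 309 ± 73.4 CPM (SD, n = 5) with PBS and 347 ± 70.7 CPM with GA. On the log2 scale GA was 0.17 higher (SE 0.163, 95% interval -0.18 to 0.52), with an adjusted p of 0.940 by edgeR's quasi-likelihood test with Benjamini-Hochberg adjustment over the 14481 genes tested. The interval of the fold change ran from 0.882 to 1.43. The difference was 0.05 without PBS replicate 1, 0.06 without GA replicate 4 and 0.27 without PBS replicate 5. It was -0.12 with the GA libraries of prefix 394 only and 0.34 with those of prefix 400 only.

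Mertk lay within a narrow range in the PBS libraries. It was at 994, 967, 980.2, 972 and 978 CPM in PBS replicates 1 to 5 and at 1041, 1087, 979, 958 and 919.9 CPM in GA replicates 1 to 5. GA replicates 1 and 2 were above every PBS library and GA replicates 4 and 5 below every one, so that the GA group spanned the PBS group on both sides. The coefficient of variation was 1.07% with PBS, smaller than in all but 1 of the 14481 genes tested, whose median was 16.6%. With GA it was 6.70% against a median of 12.2%, and 22.7% of the genes tested had a smaller one. Counting error alone would give 0.545% in the PBS libraries. This measure was chosen after the values were seen. The group means were 978 ± 10.5 CPM and 997 ± 66.8 CPM (SD, n = 5), and the log2 difference was 0.03 (SE 0.0565, 95% interval -0.09 to 0.15, edgeR adjusted p = 0.971), or a fold change between 0.937 and 1.11. It was -0.0048 without GA replicate 2.

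Tyro3, the third receptor and the one best known from neurons, was almost uncounted. It had 0, 0, 13, 18 and 0 counts in PBS replicates 1 to 5 and 5, 0, 1, 11 and 27 counts in GA replicates 1 to 5. Both groups thus held libraries with none, and Tyro3 did not pass the filter on low counts and was not tested. Per kilobase, the ratio of Axl to Mertk ran from 0.176 in PBS replicate 1 to 0.409 in GA replicate 4, so Mertk was the more abundant receptor in all 10 libraries.

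The promoters of Axl and Mertk are shown because these receptors differ in how far their level moved between libraries. The sequences are the 250 bases before the transcription start in RefSeq (GRCm38.p6), at chr7:25788734-25788983 on the minus strand for Axl and chr2:128698665-128698914 on the plus strand for Mertk, 5′ to 3′. Capitals mark the only match of GAGGAA, the core bound by PU.1 and related ETS factors of myeloid cells, searched on both strands.
Axl: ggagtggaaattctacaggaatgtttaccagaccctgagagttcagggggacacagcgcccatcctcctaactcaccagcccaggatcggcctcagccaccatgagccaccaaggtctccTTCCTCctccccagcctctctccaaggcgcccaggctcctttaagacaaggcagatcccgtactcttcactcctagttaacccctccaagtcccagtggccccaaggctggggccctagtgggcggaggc
Mertk: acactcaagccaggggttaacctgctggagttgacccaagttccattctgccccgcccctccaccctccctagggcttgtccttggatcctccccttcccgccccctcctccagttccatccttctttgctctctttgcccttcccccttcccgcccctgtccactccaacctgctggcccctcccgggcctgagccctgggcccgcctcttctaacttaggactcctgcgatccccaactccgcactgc
The match in Axl is on the reverse strand, and Mertk has none in this window. Of 27025 promoters of the same length, 23.1% hold the motif, so a match is common and is given only as a description. Neither promoter holds TATAAA, which 12.97% of promoters hold, or the STAT-type element TTCNNNGAA, which 7.18% hold and which Pros1 has 1 of. A RefSeq promoter was matched for 8 of the 10 members.

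Both ligands were counted in depth in every library. Gas6 (chr8:13465374-13494490, minus strand) is a vitamin K-dependent protein that binds all TAM receptors. It was at 344, 309.8, 297, 223 and 320.1 CPM in PBS replicates 1 to 5 and at 310.1, 307, 344, 342 and 333 CPM in GA replicates 1 to 5. PBS replicate 4 was the lowest, and all 5 GA libraries were above the PBS mean. Of the 5, 1 was above every PBS library, GA replicate 3 at 344.1 CPM against 344 CPM in PBS replicate 1. The means were 299 ± 45.9 CPM with PBS and 327 ± 17.7 CPM with GA (SD, n = 5), a log2 difference of 0.13 (SE 0.0965, 95% interval -0.07 to 0.34, edgeR adjusted p = 0.910). Without PBS replicate 4 it was 0.044. Gas6 shares 34 exon bases with Tmem255b on the opposite strand, and reads there cannot be assigned to one of them without strand.

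Pros1 (chr16:62854307-62929346, plus strand) encodes protein S, known in blood as an anticoagulant and in tissues as a ligand of Mertk and Tyro3. It was at 1039, 1114, 1103, 1119 and 1329 CPM in PBS replicates 1 to 5 and at 1133, 1054, 1172, 1087 and 1114 CPM in GA replicates 1 to 5. PBS replicate 5 was above every other library, and the remaining values of the groups covered much the same range. The means were 1141 ± 109.9 CPM and 1112 ± 45.1 CPM, and the log2 difference was -0.04 (SE 0.0673, 95% interval -0.18 to 0.11, edgeR adjusted p = 0.970), or 0.029 without PBS replicate 5. The ratio of Pros1 to Gas6 per kilobase ran from 1.88 in PBS replicate 1 to 3.14 in PBS replicate 4, with 1.98 to 2.28 in the GA libraries.

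Mfge8, Timd4, Megf10, Gulp1 and Adgrb1 act beside the TAM receptors. Mfge8 (chr7:79133768-79149060, minus strand) encodes a secreted bridge from phosphatidylserine to integrins. It was at 35.5, 32.9, 29.5, 29.8 and 41.5 CPM in PBS replicates 1 to 5 and at 35.1, 33.0, 33.7, 30.6 and 32.2 CPM in GA replicates 1 to 5. The GA libraries lay inside the PBS range, and the log2 difference was -0.04 (SE 0.0992, 95% interval -0.25 to 0.17, edgeR adjusted p = 0.975), or 0.048 without PBS replicate 5.

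Timd4 (chr11:46810800-46844332, plus strand) encodes Tim-4, a phosphatidylserine receptor of resident macrophages. It had 13, 13, 5, 38 and 13 counts in PBS replicates 1 to 5 and 14, 7, 15, 45 and 29 counts in GA replicates 1 to 5. PBS replicate 4 and GA replicate 4 were the highest, both at 1.18 CPM, and these were also the 2 libraries with the largest sum of border-associated macrophage markers, at 284 and 215 CPM against 54.9 to 165 CPM in the others. All 10 of these markers had a count, 9 of them above 1 CPM on average, and the sum ran from 55.7 to 284 CPM with PBS and from 54.9 to 215 CPM with GA. The log2 difference was 0.30 with a wide interval (SE 0.573, 95% interval -0.93 to 1.53, edgeR adjusted p = 0.970). It was 0.92 without PBS replicate 4 and -0.10 without GA replicate 4, so that a single library set its direction. Over the 10 libraries Timd4 and the marker sum had r = 0.49 (permutation p = 0.153, adjusted p = 0.745 over the 90 relations of members with marker sums) and rho = 0.31 (permutation p = 0.386), and r was -0.36 without these 2 libraries, so the relation rests on them. Timd4 followed the summed oligodendrocyte precursor markers more closely, with r = 0.79 (permutation p = 0.00687, adjusted p = 0.143) and rho = 0.84 (permutation p = 0.00367, adjusted p = 0.110), and r = 0.64 without GA replicates 2 and 4. That sum was also highest in PBS replicate 4 and GA replicate 4, at 20.1 and 23.2 CPM, in ranges of 7.98 to 20.1 CPM with PBS and 7.38 to 23.2 CPM with GA. All 6 of its markers had a count, but only Cspg4 was above 1 CPM on average, at 13.8 CPM, and the defining marker Pdgfra was at 0 in 8 of 10 libraries. Without Cspg4 the sum was 0 to 0.868 CPM, so relations with this sum are mostly relations with Cspg4. With the same sum Axl had r = 0.78 (permutation p = 0.00723, adjusted p = 0.143) and rho = 0.75 (permutation p = 0.0165, adjusted p = 0.264), and r = 0.70 without GA replicates 2 and 4. Mertk had r = -0.73 (permutation p = 0.0141, adjusted p = 0.143) and rho = -0.79 (permutation p = 0.00876, adjusted p = 0.197), and r = -0.56 without GA replicates 2 and 4. The part of either cell type in these values was not tested.

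The remaining 3 members were at or near 0. Gulp1, an adaptor of engulfment receptors, had 5 counts in all, 4 of them in PBS replicate 3. Adgrb1, which encodes the phosphatidylserine receptor BAI1, had 1 count in PBS replicate 5 and 1 in GA replicate 3. Megf10, an engulfment receptor of astrocytes, had no count among 352950173, which allows a level of up to 0.0085 CPM over all libraries or 0.0774 to 0.0928 CPM in a single one. These limits cover counting error only. No difference in these genes was detectable at this depth.

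**Figure D2:**
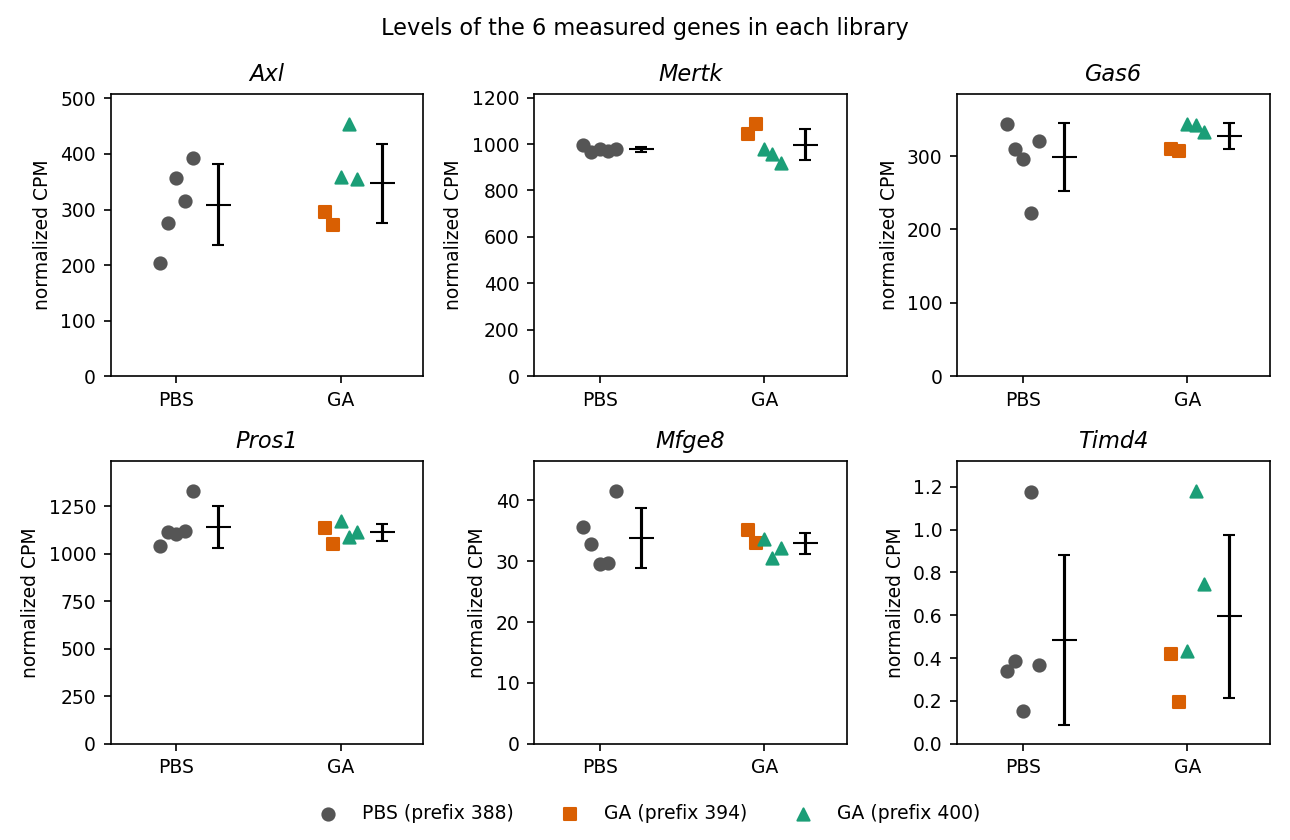
Normalized CPM of the 6 tested members in each of the 5 PBS and 5 GA libraries, 1 panel per gene with its own axis from 0, 1 point per library with shape and color by title prefix, and bars for the mean and SD of each group. The groups overlap in every panel, and Mertk shows the narrow PBS group between 967 and 994 CPM.

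GA against PBS gave no call among the members. Of the 6 that passed the filter on low counts (Axl, Mertk, Gas6, Pros1, Mfge8 and Timd4), 0 passed the edgeR test at an adjusted p of 0.05, where 0% of all genes tested did (0 of 14481). None of the 6 had an unadjusted p under 0.05, against 5.75% of all genes tested (833 genes). DESeq2 called 2 genes, Dcstamp and Gm1070, neither of them a member (0.00727%), and limma-voom called 0. In none of the 6 were the groups free of overlap, as they were for 0.891% of all genes tested (0.435% with the GA group entirely higher and 0.456% with it entirely lower). Of the fold changes, 4 were above 0 and 2 below, with a median of 0.08 on the log2 scale beside 0.0002 for all genes tested.

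**Figure D3:**
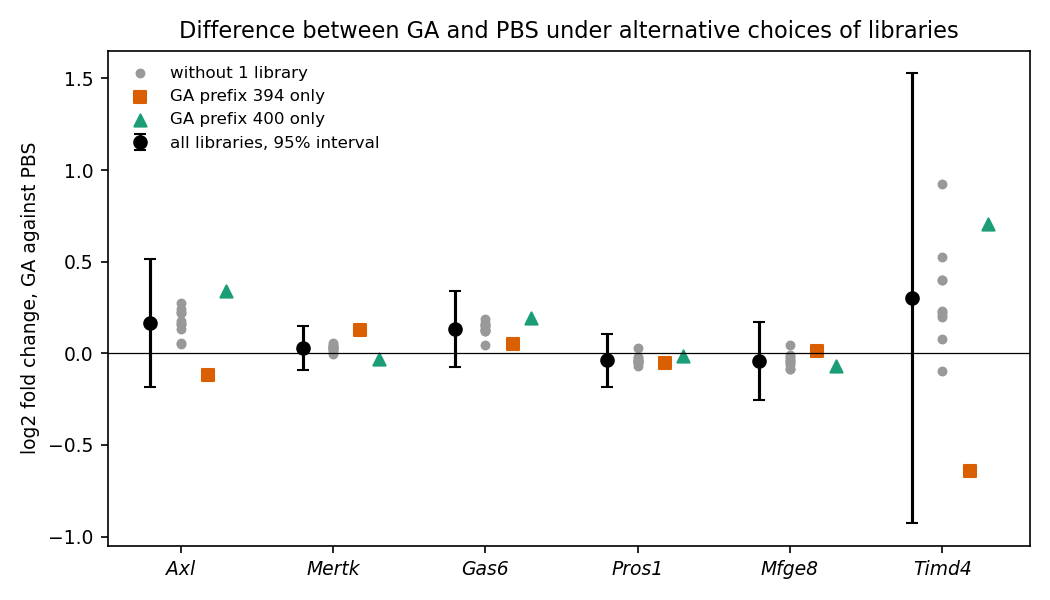
Log2 fold change of GA against PBS from edgeR for the 6 tested members, over all libraries (black, with 95% interval), without each library in turn (grey), and with the GA libraries of prefix 394 (squares) or 400 (triangles) only. All 6 intervals include 0, from the narrow one of Mertk (-0.09 to 0.15) to the wide one of Timd4 (-0.93 to 1.53).

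Within the GA group the libraries of both title prefixes were set side by side. Axl averaged 284 CPM in the 2 libraries with prefix 394 and 389 CPM in the 3 with prefix 400, beside 309 CPM in PBS. None of the former and all 3 of the latter were above the PBS mean, a log2 difference between prefixes of 0.46 (SE 0.211, edgeR adjusted p = 0.911). Mertk went the other way, with 1064 CPM for prefix 394 and 952 CPM for prefix 400 (log2 difference -0.16, SE 0.0715, edgeR adjusted p = 0.890). The summed dissociation-response genes (9 of 9 with a count, 8 above 1 CPM on average) were at 635 and 977 CPM with prefix 394 and at 497, 549 and 470.4 CPM with prefix 400, beside 502 to 827 CPM in PBS. Mertk had r = 0.71 with that sum over the 10 libraries (permutation p = 0.0240, adjusted p = 0.196) and rho = 0.62 (permutation p = 0.0607, adjusted p = 0.497), with r = 0.63 without GA replicate 2 and PBS replicate 4. Within groups r was -0.13 for PBS and 0.91 for GA, without a test, and the part of dissociation in the Mertk values was not tested. With the astrocyte markers, whose sum is nearly all Slc1a3, Mertk had r = 0.74 (permutation p = 0.0153, adjusted p = 0.143) and rho = 0.37 (permutation p = 0.296, adjusted p = 0.761), and r = 0.02 without GA replicates 1 and 2, on which it rests. Both prefix differences had an unadjusted p under 0.05, as did 5.48% of all genes tested in this comparison, and neither passed after adjustment. Only Fkbp5, a glucocorticoid-induced gene, and the transcription factor gene Myc passed the adjusted test (0.0138% of genes), both lower with prefix 400. The sign of the GA difference depended on the prefix for several members: with prefix 394 alone Axl was -0.12, Mfge8 0.015 and Timd4 -0.64, and with prefix 400 alone Mertk was -0.033.

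The 6 tested members were also compared with each other over the 10 libraries, in 15 pairs, on log2 (CPM + 0.1). No pair had an adjusted permutation p under 0.05. Axl and Mertk had r = -0.45 (permutation p = 0.193, adjusted p = 0.655) and rho = -0.50 (permutation p = 0.143, adjusted p = 0.589), with r = -0.58 without the 2 libraries farthest from the median. Within groups r was -0.51 for PBS and -0.78 for GA, over 5 libraries each and without a test. Pros1 and Mfge8 had r = 0.63 (permutation p = 0.0702, adjusted p = 0.655) and rho = 0.26 (permutation p = 0.471, adjusted p = 0.698). The value of r was 0.31 without PBS replicates 1 and 5, the libraries farthest from the median. It was -0.11 without PBS replicate 5 alone and 0.82 without PBS replicate 1 alone, so that it rests on PBS replicate 5. Mertk and Timd4 had the largest rank correlation, with rho = -0.68 (permutation p = 0.0344, adjusted p = 0.516) and r = -0.55 (permutation p = 0.0979, adjusted p = 0.655), and r = -0.49 without GA replicates 1 and 2.

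The genes whose level followed Axl most closely were Tlr2, Cd83 and Cst7. Tlr2, a receptor for bacterial lipoproteins and other ligands, had r = 0.96 with Axl over the 10 libraries, and Cd83, a surface protein of activated immune cells, had r = 0.94. Cst7, which encodes the cysteine protease inhibitor cystatin F and is known from microglia around plaques, had r = 0.93. Without PBS replicate 1 and GA replicate 4, which had the lowest and the highest Axl, these values were 0.91, 0.79 and 0.73. In PBS alone Tlr2 had r = 0.99 and in GA alone r = 0.94. Of 14480 genes searched, 11 had an r above 0.9 with Axl. These values describe the libraries, which also share their depth and cell composition, and carry no test. Between the groups, Cst7 had a log2 difference of 0.31 (SE 0.138, 95% interval 0.02 to 0.61, edgeR adjusted p = 0.854). Those of Tlr2 and Cd83 were 0.12 (SE 0.120) and 0.09 (SE 0.134).

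For Mertk the closest genes were Gm12691 (r = 0.95), Ap1m1 (r = 0.94), which encodes a subunit of the AP-1 clathrin adaptor, and C030034L19Rik (r = 0.93), with 6 genes above 0.9. Gm12691 and C030034L19Rik were low, with PBS means of 3.91 and 3.62 CPM. GA replicates 1 and 2, the highest in Mertk, carried much of this likeness, and without them r was 0.82, 0.67 and 0.86. In the PBS libraries alone, where Mertk barely moved, r was 0.84, 0.40 and -0.03.

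**Figure D4:**
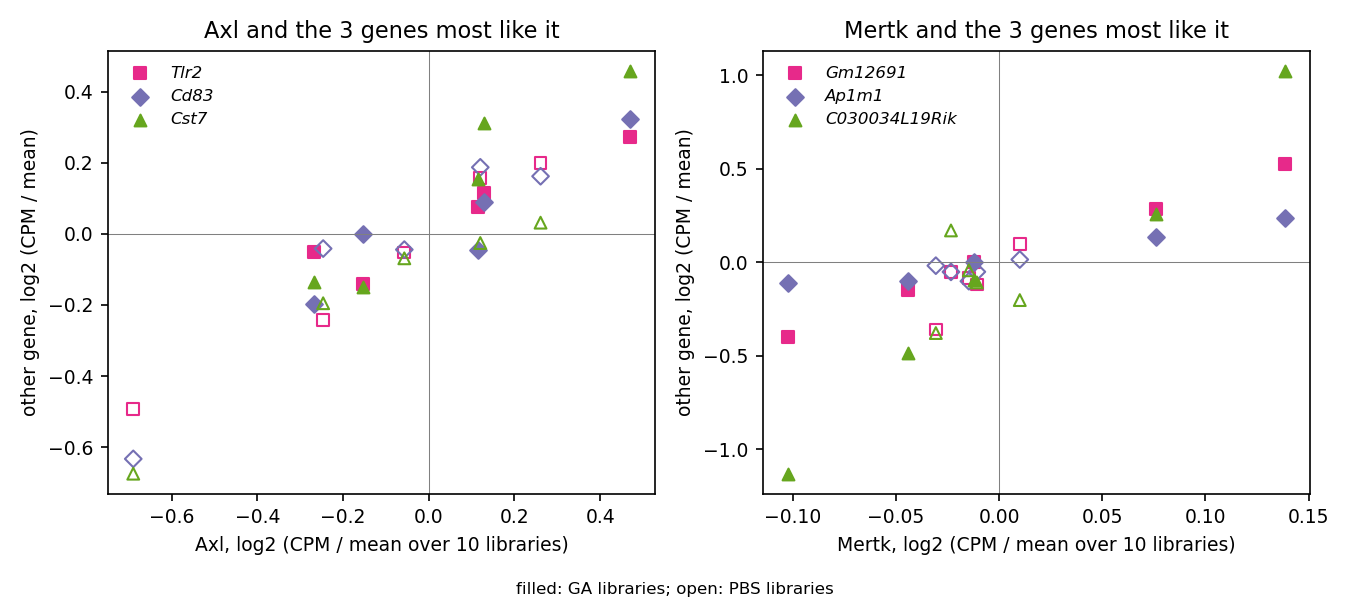
Level of the 3 genes most like Axl (left) and Mertk (right) in each library, both axes as log2 of CPM over the mean of the 10 libraries, filled for GA and open for PBS. The Axl axis spans the range from 203 to 454 CPM, whereas that of Mertk spans only 919.9 to 1087 CPM.

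The rest of the uptake pathway was described through 9 lists with 120 genes other than the members, of which 109 were tested. Of these, 53 were higher and 56 lower with GA, 0 were called by edgeR at an adjusted p of 0.05, and 7 (6.42%) had an unadjusted p under 0.05, beside 5.75% of all genes tested. The 7 were Calr, Anxa1, S1pr2, Cd24a, Rhog, Ggcx and Xkr8. No list gene passed the test, so their differences are given as values. Of 18 other uptake receptors 12 were higher and 6 lower (median log2 0.04). Itgb5, which encodes a subunit of an integrin that binds Mfge8, was at 3702 ± 406 CPM with PBS and 4047 ± 234 CPM with GA (log2 difference 0.13, SE 0.0728, or 0.20 without PBS replicate 5). Lrp1, a receptor for calreticulin on dying cells, was at 919.5 ± 77.3 CPM and 883 ± 96.4 CPM.

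Among 10 bridging molecules (7 higher, 3 lower, median 0.03), Calr, which encodes calreticulin, had a log2 difference of 0.15 (SE 0.0626, edgeR adjusted p = 0.854). Anxa1, a phosphatidylserine-binding annexin that is abundant in neutrophils, had a log2 difference of -1.52 (SE 0.598, edgeR adjusted p = 0.854), or -0.84 with the GA libraries of prefix 394 only. It was at 10.3, 2.54, 22.6, 11.1 and 18.6 CPM in the PBS libraries and at 4.05, 10.5, 0.607, 1.97 and 5.53 CPM in the GA libraries. All 10 neutrophil markers had a count, 8 of them above 1 CPM on average. Their sums were at 38.0 to 448 CPM with PBS and 11.0 to 170.2 CPM with GA (exact permutation p = 0.0794, n = 5 per group), highest in PBS replicate 3 as Anxa1 was, and their part in the Anxa1 values was not tested. The sort kept CD45int cells and neutrophils are CD45-high, but how many of them passed the gate was not tested. Cd24a, a don't-eat-me ligand also found on neutrophils, had 3 to 85 counts per library and a log2 difference of -1.80 (SE 0.711, edgeR adjusted p = 0.854) beside the same marker sums. In that list of 8 genes, 2 were higher and 6 lower (median -0.04), with the inhibitory receptor gene Lilrb4a at 0.38 (SE 0.202, 0.23 without PBS replicate 5).

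All 8 tested receptors for find-me signals, which dying cells release to draw phagocytes, were lower with GA, with a median of -0.19, where 7231 of the 14481 genes tested were lower. Without PBS replicate 2 or 5 or GA replicate 1 or 3, 7 of the 8 were lower, and with the GA libraries of prefix 400 only 7 of the 9 then tested. The largest differences were those of Fpr2 (-1.04, SE 0.509) and Fpr1 (-0.44, SE 0.396), formyl peptide receptors that are abundant on neutrophils and here had 126 and 253 counts in all. Genes of this list at higher levels were lower too. P2ry12 was at -0.12 (SE 0.0610), Cx3cr1 at -0.07 (SE 0.0564), P2ry6 at -0.13 (SE 0.0731) and S1pr1 at -0.26 (SE 0.130). The neutrophil marker sums given above averaged 260.2 CPM with PBS and 69.6 CPM with GA, and their part in this list was not tested. S1pr2, a receptor for sphingosine 1-phosphate, was at 18.7 ± 2.21 CPM with PBS and 15.4 ± 1.52 CPM with GA (log2 difference -0.28, SE 0.111, edgeR adjusted p = 0.854), and 4 of 5 GA libraries were below every PBS library. Of 20 genes of the engulfment machinery 4 were higher and 16 lower (median -0.03), but 12 were lower without PBS replicate 5 and 11 with the GA libraries of prefix 394 only. Rhog, the small GTPase that recruits the Elmo and Dock1 exchange factor, had a log2 difference of -0.18 (SE 0.0771, edgeR adjusted p = 0.854), or -0.12 without PBS replicate 4. Elmo2 was at 0.13, or 0.08 without GA replicate 5 and 0.05 with prefix 394 only.

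The 11 tested genes that regulate or modify TAM proteins had 8 higher and 3 lower, with a median of 0.13. Ggcx, the carboxylase that makes Gas6 and protein S able to bind phosphatidylserine, was at 63.5 ± 8.07 CPM with PBS and 74.6 ± 3.08 CPM with GA. Its log2 difference was 0.23 (SE 0.0853, edgeR adjusted p = 0.847), and 3 of 5 GA libraries were above every PBS library. Of these, GA replicates 1 and 3 were at 74.14 and 74.23 CPM, close to PBS replicate 5 at 74.11 CPM. Vkorc1, which recycles the vitamin K that Ggcx uses, was at -0.06, but at 0.025 without PBS replicate 4, 0.011 without PBS replicate 5 and 0.012 with prefix 400 only. Of 7 genes that move phosphatidylserine across the membrane, 5 were higher and 2 lower (median 0.11), with the scramblase gene Xkr8 at 0.24 (SE 0.110, edgeR adjusted p = 0.854), or 0.41 with prefix 394 only and 0.14 with prefix 400 only.

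**Figure D5:**
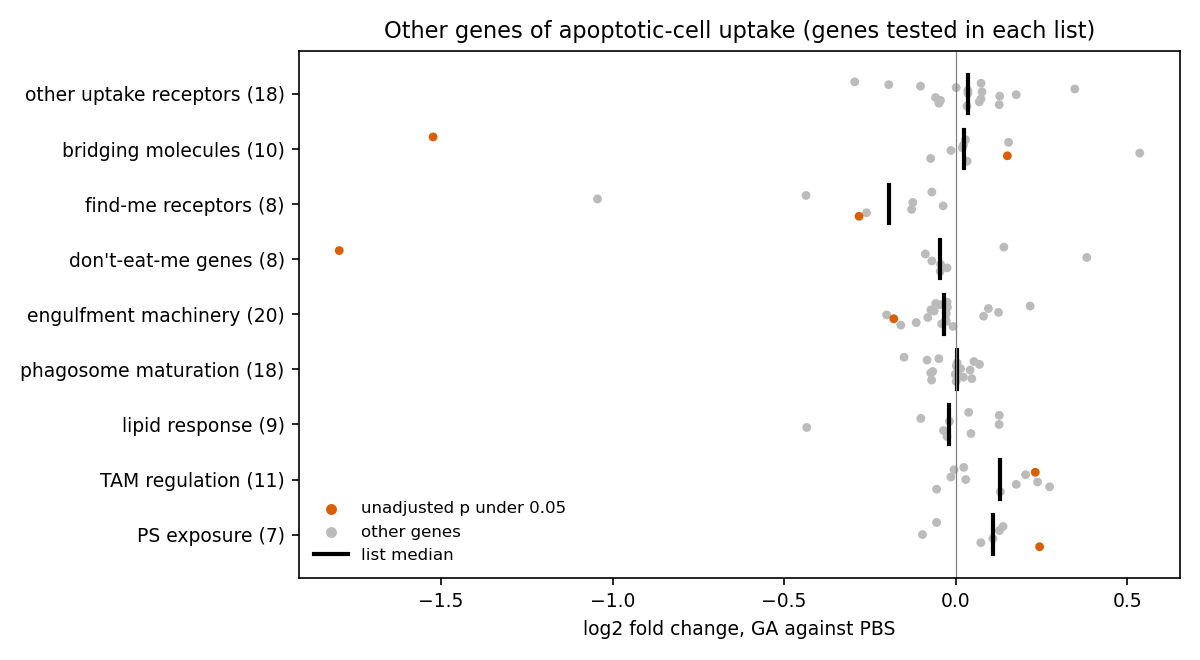
Log2 fold change of GA against PBS for each tested gene of the 9 pathway lists (number tested in brackets), with the list median as a bar and genes of an unadjusted p under 0.05 in orange. The medians run from -0.19 for find-me receptors to 0.13 for TAM regulation, and most genes lie close to 0.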

How the data were processed

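Microglia were sorted from hippocampi, and their RNA was pre-amplified as cDNA (SMARTer, low input) before library preparation with NexteraXT, which does not mark strand. The authors deposited whole-number counts of reads per gene without normalization, as 1 table of 10 libraries. The submitters' processing notes name bcl2fastq 2.19.0, fastp 0.20.0, STAR 2.7.0f, Subread 1.6.4 with featureCounts, DESeq2 and GRCm38.p6. The annotation and the handling of reads that map to several places are not given in the sources used here, so reads shared by near-identical or overlapping genes can shift a count.

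Treatment came from the sample labels, and replicate numbers follow accession order. In R 4.3.3, edgeR 4.0.16 filtered genes (filterByExpr, minimum count 10), normalized by TMM and tested GA against PBS by quasi-likelihood with Benjamini-Hochberg adjustment over 14481 genes at 0.05. CPM are TMM-normalized. Exact and permutation tests (two-sided, 100000 resamples where not exact) and correlations used log2 (CPM + 0.1) in Python 3.11.15 with scipy 1.17.1. Lengths and positions came from GENCODE on GRCm38, and promoters from RefSeq. A count of 0 was taken to allow 3 counts. No pair of libraries was a copy: the 45 pairs differed beyond counting noise. The self-test on simulated data was run with the same scripts.

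Alternatives were DESeq2 1.42.0, limma-voom (limma 3.58.1), DESeq2's size factors, library totals without further scaling, no filter, at least 10 counts in every library, a robust quasi-likelihood fit, other pseudocounts, other gene lengths, each title prefix alone and each library left out. Correlations with marker sums, the spread of Mertk and the prefix means were added after the data were seen. The members and lists were chosen with earlier results of these data known. Named genes were the members, in each list the tested gene with the smallest p in each direction and every gene with an unadjusted p under 0.05, the 3 genes most like Axl and Mertk, and the genes of the sort. A gene that this rule selects is not reported here. Dcstamp, Gm1070, Fkbp5, Myc, Fpr1, Fpr2, Cx3cr1, P2ry6 and S1pr1 were named after their values were seen.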

Additional observations from a re-analysis of the deposited data

Results flagged for a closer look

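Of 96 sets of 5 libraries examined, 7 held a library far from the other 4, and chance flags about 1 in 20, or 4.8 of 96. Among the members, Pros1 stood apart at 1329 CPM in PBS replicate 5, where the other PBS libraries had 1039 to 1119 CPM, and Timd4 at 1.177 CPM in PBS replicate 4, against 0.153 to 0.388 CPM. Calr was at 1049 CPM in PBS replicate 5 (others 860.3 to 901 CPM) and Abca7 at 49.17 CPM in PBS replicate 4 (others 80.5 to 92.9 CPM). PBS replicate 4 was also far from the rest in Itgam, at 88.68 CPM (others 191 to 233 CPM), and GA replicate 2 in Ptprc, at 591.7 CPM (others 535 to 541 CPM). Summed markers of choroid plexus and ependyma were at 3.237 CPM in PBS replicate 3 (others 0.105 to 0.747 CPM).

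Axl is listed because its GA libraries lay on opposite sides of the PBS mean by title prefix, both with prefix 394 below and all 3 with prefix 400 above. The log2 difference between the prefixes was 0.4572 (prefix 400 above 394) and did not pass the test, with an adjusted p of 0.911 by edgeR's quasi-likelihood test.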

How the results depend on the processing

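No member was called under any alternative run, and the adjusted p-values of the 6 tested members were above 0.05 in every fit that tested them (Timd4 was not tested with at least 10 counts required in every library). Genes called in GA against PBS were 0 with edgeR, 2 with DESeq2 and 0 to 1 when a library was left out. List genes with an unadjusted p under 0.05 were 7, 13 without a filter, and 4 to 10 when a library was left out (4 without PBS replicate 4 or GA replicate 4). Leaving out a library gave log2 differences of 0.05 to 0.27 for Axl, -0.0048 to 0.056 for Mertk, 0.04 to 0.19 for Gas6, -0.069 to 0.029 for Pros1, -0.085 to 0.048 for Mfge8 and -0.10 to 0.92 for Timd4. It also turned the sign for Abca7 (-0.0046 to 0.19), Vkorc1 (-0.12 to 0.025) and the correlation of Pros1 with Mfge8 (-0.11 to 0.82). With GA libraries of prefix 394 only, Axl was -0.12, Mfge8 0.015 and Timd4 -0.64, and with prefix 400 only Mertk was -0.033 and Vkorc1 0.012; the cause was not tested. With the longest transcript as length, Pros1 was at 341 and Mfge8 at 14.3 CPM per kilobase. The untested members are limited by their few counts. Timd4 had 5 to 45 counts per library and a coefficient of variation of 82.0% with PBS and 64.0% with GA, above the 24.7% that counting error gives in PBS. No paired analysis was possible because the labels' numbers mark no shared pairs between PBS and GA libraries.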

Other observations

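Of the 90 relations between a tested member and a marker list, Mfge8 with the summed microglial markers had the highest Pearson r, with r = 0.92 (permutation p = 0.00057, adjusted p = 0.0513) and rho = 0.87 (permutation p = 0.00227, adjusted p = 0.102) over 10 libraries, and r = 0.89 without the 2 farthest libraries. Pros1 with oligodendrocyte markers had the highest rho, 0.88 (permutation p = 0.00179, adjusted p = 0.102), with r = 0.70 (permutation p = 0.0139, adjusted p = 0.143) and r = 0.66 without GA replicates 2 and 3. That sum ran from 180.5 to 209.8 CPM with PBS and from 175.3 to 218.9 CPM with GA and was mostly Cnp, at 102.3 CPM on average, Mbp and Mag, while Mog, Opalin, Ermn and Cldn11 were at 0 in 5 to 7 libraries. Neither relation passed the adjustment, and these comparisons were chosen after the data were seen.

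The last 2 lists hold genes that digest the engulfed cell and handle its lipids. Of 18 genes of phagosome maturation and digestion 11 were higher and 7 lower with GA (median log2 difference 0.00), with the lysosomal protease gene Ctsd at 0.07 (0.015 without PBS replicate 1 and 0.13 without PBS replicate 5) and the autophagy gene Atg16l1 at -0.15 (-0.09 without PBS replicate 3). Of 9 lipid-response genes 4 were higher and 5 lower (median -0.02), with the lipid transporter gene Abca7 at 0.13 (-0.0046 without PBS replicate 4) and the nuclear receptor gene Ppard at -0.43. None of these genes had an unadjusted p under 0.05 by edgeR's quasi-likelihood test, as 5.75% of all genes tested had.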
